A study of Mus musculus with 32 samples.

Results

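Gene expression 120 min after FGF was compared with that before FGF in floxed mouse fibroblasts, using the 3 WT arrays labelled 120 min and the 4 WT arrays labelled 0 min out of 32 arrays in the series. The cells are MEFs, fibroblasts of mouse embryos, which build connective tissue, and they had been immortalized so that they keep dividing. WT cells are homozygous for floxed Spry1, Spry2 and Spry4 and are labelled as expressing these genes, and KO cells have lost them. All cells, those at 0 min included, were starved of serum in DMEM with 0.2% BSA, penicillin and streptomycin. FGF was then given for 0, 15, 60, 120 or 240 min, and total RNA was hybridised to Illumina mouse bead arrays. Which FGF was given, at what dose, and how the cells were immortalized are not given in the sources used here. No arrays of cells kept for 120 min without FGF were analysed here, so the effects of FGF, of handling and of more time in starvation medium cannot be told apart. Replicates are called biological by the design text without a word on separate cultures, and p-values therefore reflect the spread among these arrays, part or all of which may be technical.

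Fibroblast growth factors bind receptor tyrosine kinases, and the adaptors on those receptors switch on Ras and the kinases Raf, MEK and ERK. ERK acts first on immediate early genes, many of them transcription factors such as the Fos, Jun and Egr proteins, whose transcripts appear and vanish quickly and need no new protein. Those factors and ERK itself then drive delayed early genes, which encode proteases, secreted factors and matrix proteins, while feedback inhibitors such as Sprouty proteins and dual-specificity phosphatases turn the pathway down. A time of 120 min lies after the first wave and within the second.

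Between 11319 and 11863 of 25697 probes (44.0% to 46.2%) were detected above the negative controls on the 7 arrays, each probe being read from 35 to 41 beads (median of an array), and precision is limited by the few arrays. Taken over probes, which do not count as replicates, the correlation between arrays ran from 0.991 to 0.995 within a group and from 0.990 to 0.992 between a 0 min and a 120 min array. WT 0 min replicate C stood farthest from its group, its squared differences being 3.81 to 5.48 times those of bead noise, against 1.55 to 2.54 times among replicates A, B and D. Of 14 fibroblast markers on the array 13 were detected on all 7 arrays, among them vimentin, Thy1 and the collagen genes Col1a1 and Col1a2, and their summed level was 24033 to 27349 at 0 min and 25074 to 27131 at 120 min. Of 9 leukocyte markers 4, Ptprc among them, were detected on none of the 7 arrays and 1, Cd14, on all of them, and their summed level was 283 to 365 at 0 min and 325 to 348 at 120 min. Lyz1 was detected on 2 of 4 arrays at 0 min and 3 of 3 at 120 min, Aif1 on 3 of 4 and 1 of 3, and Adgre1 and Lyz2 on 1 of 4 and 0 of 3. Of 7 endothelial markers 6, Pecam1 and Cdh5 among them, were detected on none (152 to 168 and 161 to 164). Of 7 skeletal muscle markers 5, Myod1 among them, were detected on none (163 to 183 and 173 to 183), while Myog was detected on 3 of 4 arrays at 0 min and 1 of 3 at 120 min and Des on 3 of 4 and 3 of 3. Of 6 adipocyte markers 5 were detected on none and 1, Pparg, on all 7 arrays (154 to 170 and 154 to 172). Of 7 chondrocyte and osteoblast markers 5 were detected on none and 1, Sox9, on all 7 (412 to 466 and 455 to 482).

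At 120 min, 438 of 10903 genes tested had changed (4.02%, limma adjusted p under 0.05), 222 higher (2.04%) and 216 lower (1.98%). Most changes were small: the median size among these genes was 0.49 on the log2 scale, 26 rose and 3 fell by more than 2-fold, and the median of all genes tested was -0.01. The arrays of the 2 groups did not overlap for 211 of the genes called higher and 202 of those called lower. Over all genes tested, 688 (6.31%) had every 120 min array above every 0 min array and 832 (7.63%) had every one below. At an unadjusted p under 0.05, 1729 genes differed. Single arrays mattered: 124 of the higher and 76 of the lower genes stayed called whichever of the 7 arrays was left out, and the number lower was 135, 136 and 122 without WT 120 min replicate A, B or C. With each array scaled to a common median over all probes in place of quantile normalization, 218 genes were higher and 72 lower, so that 75.2% of the genes called were higher, against 50.7%. A fit of the 7 compared arrays alone called 112 genes higher and 66 lower. The genes Dusp2, Junb, Cebpb, Il11, Fos, Egr3, Tob1, Gadd45g, Cdkn1a and Ccnd1 were added to those described after their values were seen.

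**Figure D1:**
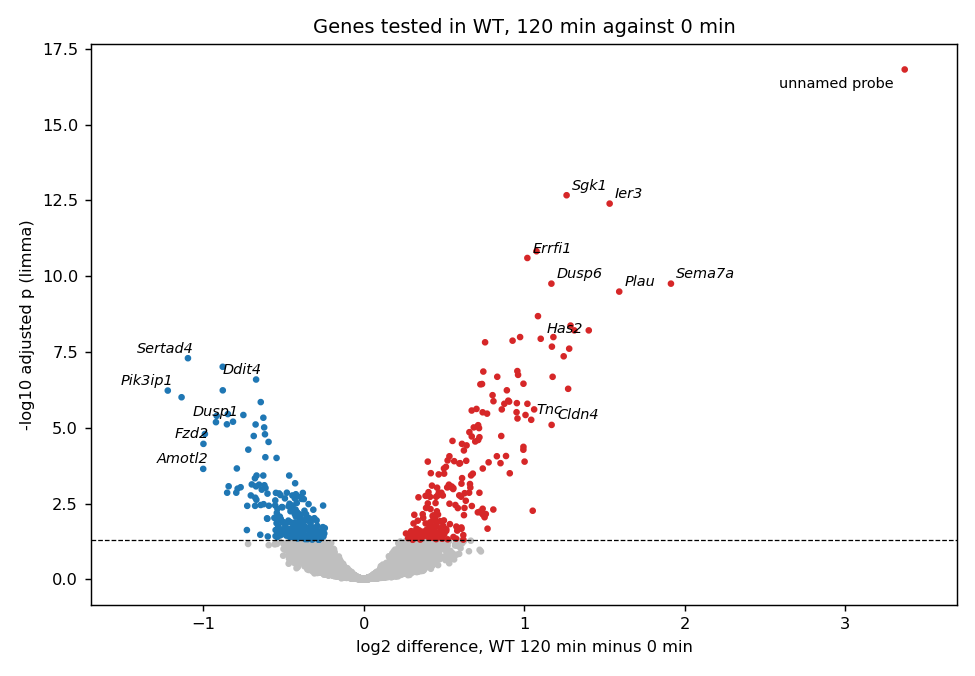
Log2 difference between WT 120 min (3 arrays) and 0 min (4 arrays) on the x axis and -log10 of the limma adjusted p on the y axis for the 10903 genes tested. Red points are the 222 genes called higher and blue points the 216 called lower, the dashed line is an adjusted p of 0.05, and the rises reach farther from 0 than the falls.

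All values below are log2 normalized intensities or differences of them, with the moderated standard error of the fit (n = 3 arrays at 120 min and 4 at 0 min), and every adjusted p is limma's over all genes tested. The largest rise belonged to a probe without a gene name in the annotation (ILMN_1238547), singled out after its values were seen. It read 5.88, 6.13, 6.24 and 6.07 on the 4 arrays at 0 min and 9.49, 9.56 and 9.30 at 120 min, a 10.3-fold rise (log2 3.37 ± 0.12, adjusted p = 1.51e-17), and its WT mean was 9.03 at 60 min and 8.81 at 240 min. Among named genes Sema7a, which encodes a membrane-anchored semaphorin, rose most. It read 6.08, 6.31, 6.47 and 5.81 at 0 min and 7.89, 7.98 and 8.38 at 120 min, a 3.77-fold rise (1.92 ± 0.14, adjusted p = 1.76e-10), measured by 1 of the gene's 2 kept probes and not called by the other. Its WT mean was 4.77 at 15 min and 5.95 at 60 min, so that the rise came between 60 and 120 min. The groups of arrays did not overlap for any of the 15 largest rises and 15 largest falls, which were chosen so. The rises beyond the gene groups below were Fam167a (1.25 ± 0.12), Acer2, a Golgi ceramidase (1.18 ± 0.13), and Cldn4, a tight junction claudin (1.17 ± 0.16, adjusted p = 8.05e-06).

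**Figure D2:**
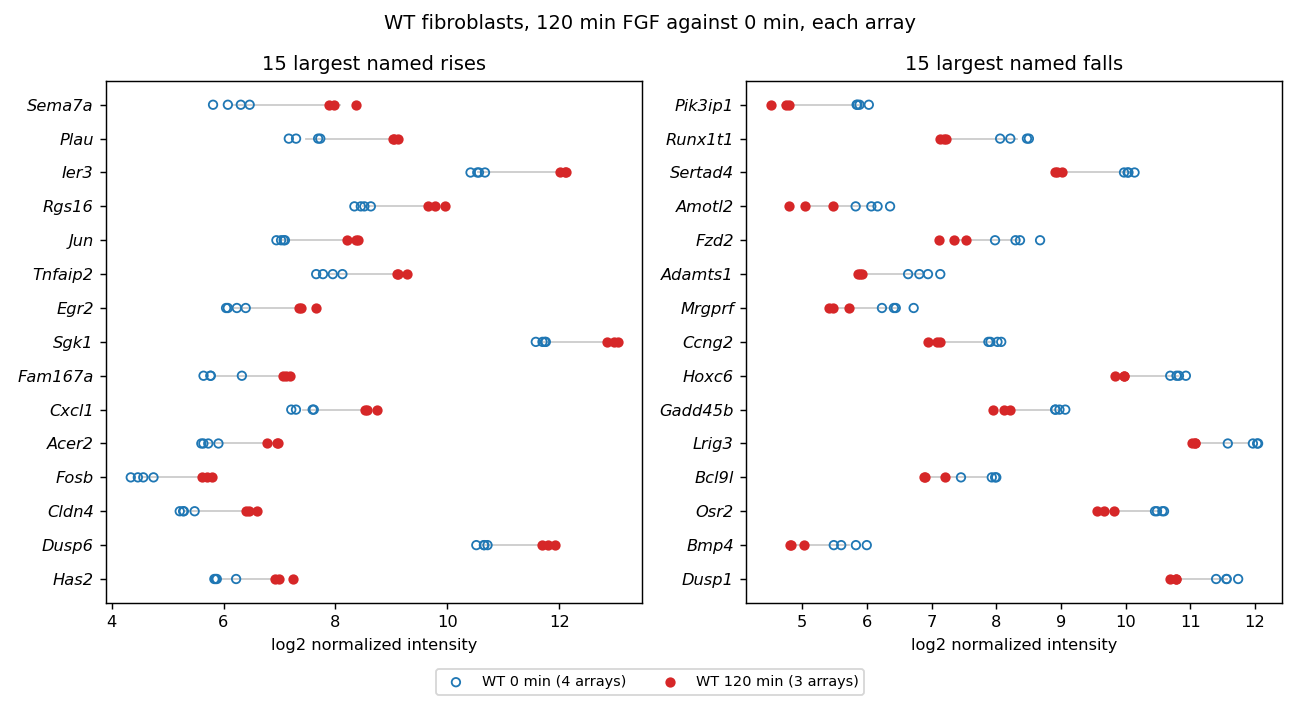
Log2 normalized intensity (x axis) of the 15 largest named rises and the 15 largest named falls, each of the 4 WT arrays at 0 min as an open blue circle and each of the 3 at 120 min as a filled red one, joined by a line between the group means. Sema7a moved from 6.17 to 8.08 and Pik3ip1 from 5.90 to 4.68.

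Genes of ERK feedback were called higher more often than lower at 120 min. Of 18 tested, 7 rose, 1 fell and 10 did not pass, and their median was 0.25. Of all genes tested, 2.04% were called higher and 1.98% lower, the background for each list count against 0 min below. Dusp6, the phosphatase that acts on ERK in the cytoplasm, read 10.66, 10.72, 10.65 and 10.52 at 0 min and 11.70, 11.80 and 11.92 at 120 min, a 2.25-fold rise (1.17 ± 0.09, adjusted p = 1.76e-10) that all 3 of its kept probes showed. Errfi1, an inhibitor of the EGF receptor, was among the brightest of these genes, with 12.16, 12.12, 12.001 and 12.08 at 0 min and 13.03, 13.13 and 13.18 at 120 min (1.02 ± 0.07, adjusted p = 2.5e-11). In neither gene did the groups of arrays overlap. Rgs16, which shortens G-protein signals, rose by 1.31 ± 0.12, and Rasa2, a Ras GTPase activator, by 0.95 ± 0.11. Dusp2, a nuclear phosphatase, was not well above background at 0 min and was at least 1.24-fold higher at 120 min (adjusted p = 0.00139), in 1 of 2 kept probes.

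Dusp1, another phosphatase of the MAP kinases and itself an immediate early gene, went the other way. It read 11.56, 11.57, 11.40 and 11.74 at 0 min and 10.78, 10.69 and 10.78 at 120 min, 1.76-fold lower (-0.81 ± 0.11, adjusted p = 6.31e-06). Its WT mean had been 12.47 at 60 min, so that it fell by 1.72 on the log2 scale between 60 and 120 min (adjusted p = 1.19e-11) to below its starting level. Of the Sprouty genes, Spry4 read 5.37, 5.77, 5.49 and 5.16 at 0 min and 6.03, 6.04 and 6.30 at 120 min (0.67 ± 0.14, adjusted p = 0.00382), with no overlap. Spry3, the family member that is not floxed, differed by 0.36 ± 0.10 (adjusted p = 0.037), a call that ended without any 1 of 4 arrays (adjusted p up to 0.174, without WT 120 min replicate C). Spry1 and Spry2 were detected on at most 2 of the 32 arrays and were not tested.

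Of 20 FGF receptors, ligands and adaptors tested none was higher and 2 were lower, beside 2.04% and 1.98% of all genes tested. They were Fgf5 (-0.38 ± 0.07) and the docking protein gene Gab1 (-0.40 ± 0.10), with a median of -0.01. The call of Gab1 ended without WT 120 min replicate C (adjusted p = 0.0913). Among 17 tested receptors for other growth factors, none was called by limma in either direction, while Hbegf, a ligand of the EGF receptor, was the 1 of 7 tested EGF family genes that passed. It read 10.50, 10.76, 10.32 and 10.60 at 0 min and 11.32, 11.33 and 11.21 at 120 min, a 1.67-fold rise (0.74 ± 0.09, adjusted p = 3.09e-06).

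Immediate early transcription factors were called in 1 direction. Of 25 tested, 9 rose and none fell, beside 2.04% and 1.98% of all genes tested, with a median of 0.28. Jun read 7.08, 7.10, 6.95 and 7.03 at 0 min and 8.22, 8.40 and 8.37 at 120 min, a 2.44-fold rise (1.29 ± 0.11, adjusted p = 4.25e-09). Egr2, a zinc finger factor, read 6.05, 6.397, 6.24 and 6.08 and then 7.65, 7.39 and 7.35 (1.27 ± 0.14, adjusted p = 5.18e-07). For both genes every 120 min array lay above every 0 min array. Fosb was not well above background on any array at 0 min (4.34, 4.75, 4.47 and 4.57) and was detected on all 3 at 120 min (5.61, 5.80 and 5.70), at least 1.67-fold higher (adjusted p = 2.11e-08). The stress factor Atf3 rose by 1.01 ± 0.13, the AP-1 subunits Fosl1 and Junb by 0.89 ± 0.14 and 0.64 ± 0.10, and Cebpb by 0.53 ± 0.08.

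Myc, the growth regulator, rose by 0.74 ± 0.17 (adjusted p = 0.00658), but not without WT 120 min replicate B (adjusted p = 0.106). Egr1 stood at 11.37, 11.59, 11.09 and 11.37 at 0 min and 11.61, 11.84 and 11.65 at 120 min, a difference of 0.35 ± 0.15 that did not pass (adjusted p = 0.252) although the arrays did not overlap. Its WT mean was 12.88 at 15 min and 13.82 at 60 min. Fos differed by 0.37 ± 0.25 (adjusted p = 0.527) and Egr3 by 0.05 ± 0.15 (adjusted p = 0.932), and their arrays overlapped. Of the Ets factors that ERK phosphorylates or induces, 1 of 10 tested was called, Ets2 (0.36 ± 0.10, adjusted p = 0.0334), and that call ended without any 1 of 6 arrays (adjusted p up to 0.157, without WT 120 min replicate C).

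Against the WT arrays at 60 min, 12 of the 25 immediate early factors were lower at 120 min and none was higher, where 4.86% of all genes tested were lower. Egr2 fell by 1.71 on the log2 scale between the 2 times, Fosb by 1.47, Junb from 10.35 to 8.84 and Egr1 by 2.12 (adjusted p = 3.65e-09, 3.66e-10, 5.79e-11 and 1.93e-10). Jun and Fosl1 were nearer to their 60 min level (-0.31 ± 0.12 and -0.46 ± 0.15, adjusted p = 0.12 and 0.0535). At 240 min 8 of the 25 were lower than at 120 min, against 4.6% of all genes tested, and Egr2 went from 7.46 to 6.0, beside 6.19 at 0 min.

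Other immediate early genes, outside the list of factors above, split. Of 26 tested, 7 rose and 6 fell, beside 2.04% and 1.98% of all genes tested, with a median of 0.05. Ier3, an early response gene linked to survival signalling, read 10.41, 10.67, 10.56 and 10.53 at 0 min and 12.01, 12.11 and 12.12 at 120 min, a 2.89-fold rise (1.53 ± 0.09, adjusted p = 4.01e-13). Sgk1, a kinase induced by serum and glucocorticoids, read 11.58, 11.74, 11.70 and 11.76 and then 12.86, 12.97 and 13.05 (1.26 ± 0.07, adjusted p = 2.13e-13). In both genes every 120 min array lay above every 0 min array. Phlda1 rose by 0.96 ± 0.10, the stress kinase gene Plk3 by 0.72 ± 0.10 and the matricellular gene Ccn1 by 0.56 ± 0.10, the last in 1 of 3 kept probes.

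The 6 that were lower included Amotl2, an angiomotin that binds YAP, at 6.36, 6.16, 5.82 and 6.07 and then 5.48, 4.80 and 5.04 (-0.999 ± 0.17, adjusted p = 0.000227, 2 of 3 arrays at 120 min detecting it). Gadd45b and Gadd45g, stress sensors of 1 family, fell by 0.88 and 0.62 on the log2 scale (adjusted p = 5.82e-07 and 4.67e-06), and Tob1, an antiproliferative factor, by 0.46 (adjusted p = 0.00322). Rnd3 was lower by 0.60 and the kinase gene Plk2 by 0.41, but these 2 calls did not hold throughout. That of Rnd3 ended without WT 120 min replicate B (adjusted p = 0.117) and that of Plk2 without any 1 of 2 arrays (adjusted p up to 0.122, without WT 120 min replicate C). Amotl2, Gadd45g, Plk2 and Rnd3 had all stood higher at 60 min than at 0 min, with WT means of 7.09, 12.24, 12.04 and 9.89 at 60 min beside 6.10, 11.69, 11.05 and 9.46 at 0 min. Gadd45b had not (8.78 beside 8.97). Against 60 min, 18 of the 26 were lower at 120 min and none was higher, where 4.86% and 2.99% of all genes tested were. Csrnp1 and Ccn2, for example, had gone from 10.32 and 14.16 back to 7.42 and 11.53, near their 0 min means of 7.52 and 11.77.

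**Figure D3:**
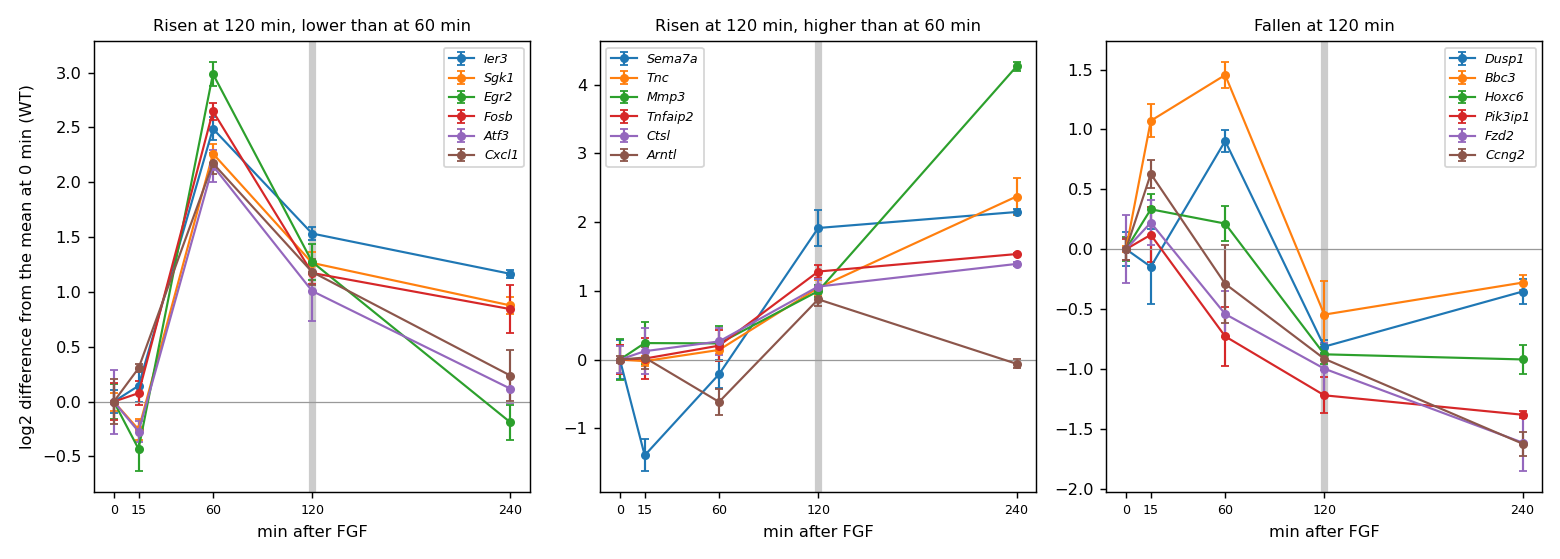
Difference of the WT group mean from the 0 min mean (log2, y axis) against min after FGF (x axis) for 6 risen genes that were lower at 120 than at 60 min, 6 risen genes that were higher, and 6 fallen genes, with bars for the SD of 4 arrays at 0 min and 3 at each other time. The grey band marks 120 min, where Egr2 stood at 1.27 after 2.99 at 60 min, and Mmp3 at 0.996 before 4.27 at 240 min.

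Some delayed early genes of growth factor signalling were higher. Of 32 tested, 13 rose, none fell and 19 did not pass, beside 2.04% higher and 1.98% lower of all genes tested. Their median was 0.29. Plau, the urokinase-type plasminogen activator, read 7.17, 7.73, 7.69 and 7.30 at 0 min and 9.12, 9.04 and 9.03 at 120 min, a 3.02-fold rise (1.59 ± 0.12, adjusted p = 3.21e-10). Its receptor gene Plaur read 7.33, 7.55, 7.501 and 7.41 and then 8.12, 8.29 and 8.17 (0.75 ± 0.08, adjusted p = 1.4e-07). Enzyme and receptor thus rose together, with no overlap between groups in either. Vegfa, the main growth factor for blood vessels, read 9.62, 9.47, 9.50 and 9.63 and then 10.68, 10.69 and 10.55 (1.09 ± 0.09, adjusted p = 2.08e-09), in both of its kept probes. The IL-6 family cytokine Lif rose by 0.91 ± 0.16, in 2 of 3 kept probes, and was detected on 2 of 4 arrays at 0 min and 3 of 3 at 120 min. Sphk1, which makes a sphingosine phosphate lipid mediator, rose by 0.80 ± 0.09, in 1 of 3 kept probes. Il11, another IL-6 family cytokine, differed by 0.48 ± 0.12 (adjusted p = 0.0229), a call that ended without any 1 of 3 arrays (adjusted p up to 0.169, without WT 120 min replicate A).

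Of 21 tested genes of glucose uptake, glycolysis and hypoxia 3 rose and none fell: Vegfa, the glucose transporter gene Slc2a1 (9.93, 9.93, 9.83 and 9.89 at 0 min and 10.53, 10.59 and 10.77 at 120 min, 0.74 ± 0.08, adjusted p = 3.6e-07) and hexokinase 2 (Hk2, 0.62 ± 0.09, adjusted p = 5.61e-05). Of all genes tested, 2.04% were higher and 1.98% lower. The median of this list was 0.01. Its other 18 members, which include the later glycolytic enzymes, did not pass.

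Among cytokine, chemokine and NF-kappaB genes 8 of 37 rose and 1 fell, beside 2.04% and 1.98% of all genes tested. Their median was 0.08. The neutrophil attractant Cxcl1 read 7.29, 7.59, 7.61 and 7.21 at 0 min and 8.75, 8.52 and 8.56 at 120 min (1.18 ± 0.11, adjusted p = 1.02e-08). Tnfaip2, first known as a gene induced by TNF, read 7.78, 7.95, 8.12 and 7.66 and then 9.10, 9.11 and 9.27 (1.28 ± 0.12, adjusted p = 2.45e-08), in all 3 of its kept probes. The monocyte attractants Ccl2 and Ccl7, which are close paralogs that a probe may not fully separate, rose by 0.95 ± 0.12 and 0.83 ± 0.13, and Nfkbiz, a nuclear modulator of NF-kappaB, by 0.83 ± 0.09 (adjusted p = 2.08e-07). Il6 was detected on 2 of 4 arrays at 0 min and 2 of 3 at 120 min and differed by -0.03 ± 0.16 (adjusted p = 0.956).

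Matrix proteases and their inhibitors went both ways, 6 of 23 higher and 3 lower, beside 2.04% and 1.98% of all genes tested. Their median was -0.03. Beside Plau and Plaur, the lysosomal protease gene Ctsl read 6.69, 6.34, 6.32 and 6.26 at 0 min and 7.44, 7.37 and 7.58 at 120 min (1.06 ± 0.13, adjusted p = 2.48e-06). The stromelysin gene Mmp3 read 5.12, 5.06, 5.63 and 4.97 and then 6.26, 6.23 and 6.09 (0.996 ± 0.15, adjusted p = 4.26e-05), in 2 of 3 kept probes. The related Mmp10 differed by 0.56 ± 0.16 (adjusted p = 0.0401), but its arrays overlapped and the call ended without any 1 of 4 arrays (adjusted p up to 0.253, without WT 120 min replicate C). Adamts1, a protease of proteoglycans, fell: it read 6.94, 7.13, 6.81 and 6.64 at 0 min and 5.90, 5.86 and 5.92 at 120 min (-0.99 ± 0.14, adjusted p = 1.61e-05), in 1 of 2 kept probes.

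Of 26 other matrix genes 2 rose and none fell, beside 2.04% and 1.98% of all genes tested, with a median of 0.02. They were Has2, which makes hyaluronan (5.88, 5.86, 6.22 and 5.84 at 0 min and 6.996, 6.92 and 7.25 at 120 min, 1.10 ± 0.10, adjusted p = 1.16e-08), and tenascin C, an adhesion-modulating glycoprotein of injured tissue (Tnc, 6.91, 7.30, 6.92 and 7.27 and 8.03, 8.15 and 8.25, 1.04 ± 0.14, adjusted p = 5.46e-06, in 2 of 5 kept probes). Neither gene's groups overlapped. Of semaphorins, ephrins and other guidance genes 3 of 23 rose and 1 fell, and after Sema7a the largest was Sema4b (0.96 ± 0.10, adjusted p = 1.8e-07).

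The AP-1 factors named above bind the site TGANTCA. The promoters searched for this motif were those of RefSeq's promoter set (GRCm38.p6), the first listed where a gene has several. The motif was looked for on both strands in the 250 bases before the start of each gene. It occurred in 1856 of 27025 promoters (6.87%), in 406 of 8151 of genes tested that had a listed promoter (4.98%), in 16 of 163 of those called higher (9.82%) and in 4 of 169 of those called lower (2.37%). Of 7 other motifs searched in the same way, the E-box CACGTG of Myc and Max was in 11.7% of the higher and 11.8% of the lower genes, against 8.28% of genes tested, and the GC box GGGGCGGGG in 24.5% and 24.3%, against 19.3%. The CRE TGACGTCA was in 1.23% and 4.73% (2.6% of genes tested), the Ets site CCGGAAGT in 1.23% and 2.96% (5.78%), the ATF4 element TGATGNAA in 3.07% and 2.96% (2.28%), the FoxO site TGTTTAC in 3.68% and 3.55% (2.26%) and the CArG box of SRF in 0% and 1.18% (1.25%). A longer motif can overlap a shorter one, these shares are a description, and a match is not a bound site. To show what the AP-1 letters look like in place, the lines that follow give 7 risen genes described in the text that hold them, each with up to 30 bases on either side of the copy nearest the start, 5′ to 3′ on the strand of the gene, the site in capitals.
Mmp3 (chr9:7445746-7445812, plus strand): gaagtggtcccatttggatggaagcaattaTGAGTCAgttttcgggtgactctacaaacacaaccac
Mmp10 (chr9:7502249-7502315, plus strand): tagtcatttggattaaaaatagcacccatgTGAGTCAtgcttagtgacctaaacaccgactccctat
Plaur (chr7:24462384-24462450, plus strand): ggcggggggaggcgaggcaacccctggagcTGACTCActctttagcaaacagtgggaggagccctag
Cldn4 (chr5:134947056-134947122, minus strand): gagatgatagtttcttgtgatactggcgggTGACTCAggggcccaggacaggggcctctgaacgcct
Lif (chr11:4257318-4257376, plus strand): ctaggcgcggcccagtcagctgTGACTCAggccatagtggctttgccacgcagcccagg
Srxn1 (chr2:152105449-152105515, plus strand): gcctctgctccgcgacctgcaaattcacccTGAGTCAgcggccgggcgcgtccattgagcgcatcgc
Klf9 (chr19:23141107-23141173, plus strand): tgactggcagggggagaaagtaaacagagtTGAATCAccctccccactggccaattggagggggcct
The capitals begin 46 bases before the start in Mmp3, 63 in Mmp10, 69 in Plaur, 158 in Cldn4, 228 in Lif, 45 in Srxn1 and 89 in Klf9. The 2 stromelysin genes and Srxn1 carry TGAGTCA, Plaur, Cldn4 and Lif TGACTCA, and Klf9 TGAATCA. Cldn4 and Srxn1 hold a second copy. Srxn1, a reductase of oxidised peroxiredoxins, differed by 0.40 ± 0.08 (adjusted p = 0.00134), in 1 of 3 kept probes. Klf9 differed by 0.35 ± 0.09 (adjusted p = 0.0305), a call that ended without any 1 of 4 arrays (adjusted p up to 0.141, without WT 120 min replicate A).

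**Figure D4:**
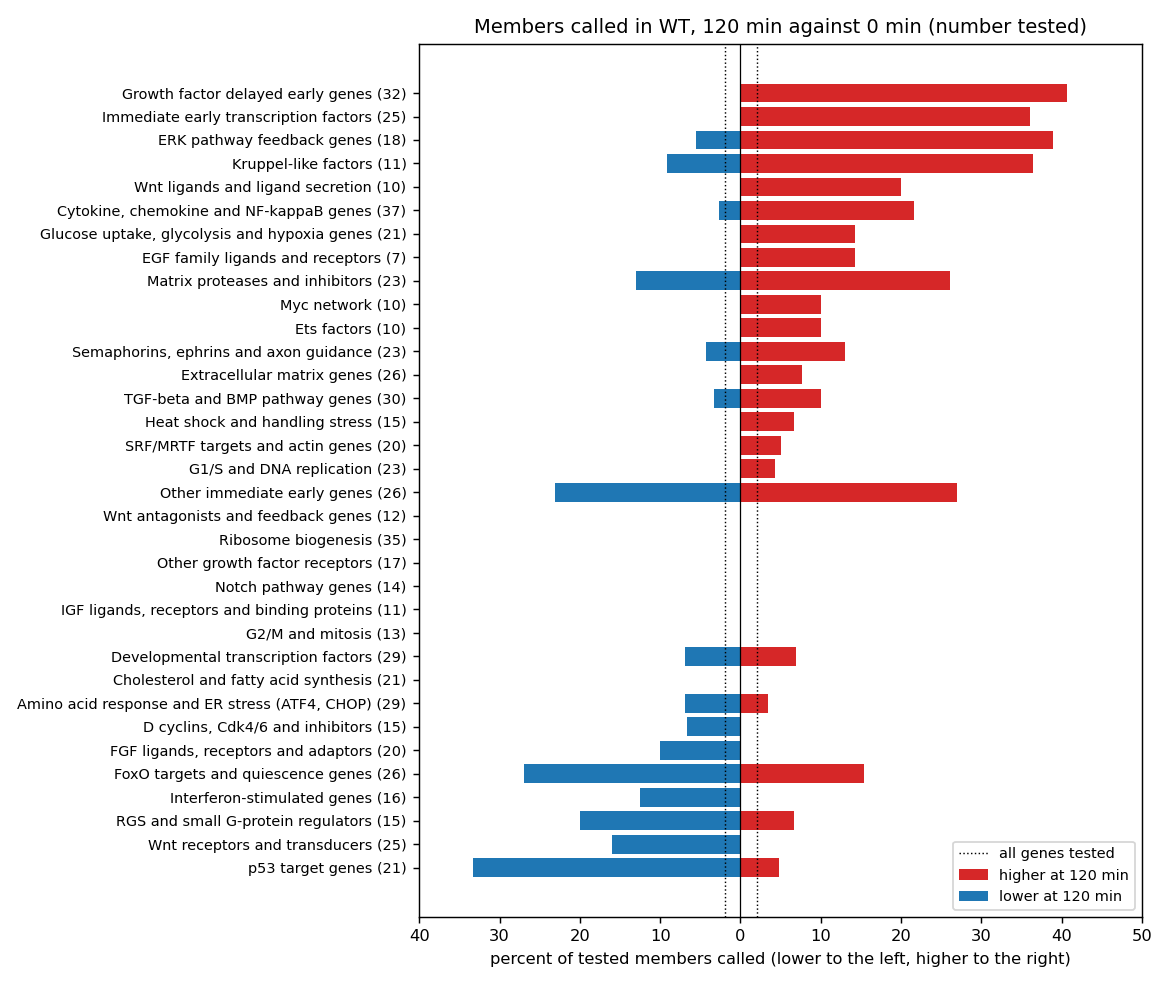
Percent of the tested members of 34 gene lists called higher (red, to the right) or lower (blue, to the left) in WT at 120 min against 0 min, with the number tested in parentheses. The dotted lines mark the shares over all genes tested, 2.04% higher and 1.98% lower. Delayed early genes, ERK feedback genes, Kruppel-like factors and immediate early factors reach farthest to the right, in that order.

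Among the largest falls were 2 genes known to restrain growth signalling or division. Pik3ip1, an inhibitor of PI 3-kinase, read 5.85, 5.84, 5.88 and 6.03 at 0 min and 4.74, 4.79 and 4.51 at 120 min, when no array detected it, and was at least 1.98-fold lower (adjusted p = 5.92e-07). Ccng2, a cyclin found in resting cells, read 7.91, 8.02, 8.08 and 7.88 and then 7.13, 6.95 and 7.09 (-0.92 ± 0.12, adjusted p = 4.04e-06). Both belong to the list of FoxO targets and quiescence genes. Of its 26 tested members 7 fell and 4 rose, beside 1.98% and 2.04% of all genes tested, with a median of -0.09. The 4 that rose include Bcl2l11, which encodes the death protein Bim (0.63 ± 0.12, in 1 of 2 kept probes), and Cited2, a coactivator-binding protein (0.66 ± 0.12). The list thus did not move one way. Ddit4, an inhibitor of mTORC1 from the list of amino acid response and ER stress genes (1 of 29 higher and 2 lower), read 10.72, 10.55, 10.61 and 10.61 at 0 min and 10.05, 9.94 and 9.87 at 120 min (-0.67 ± 0.07, adjusted p = 2.56e-07).

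Known p53 targets were lower more often than higher, 7 of 21 against 1, beside 1.98% and 2.04% of all genes tested. Their median was -0.19, and 3 of the 7 stayed called whichever array was left out. Trp53inp1, which binds p53, read 8.80, 8.80, 8.996 and 8.85 at 0 min and 8.32, 8.09 and 7.93 at 120 min (-0.75 ± 0.10, adjusted p = 3.79e-06), in both kept probes. Bbc3, which encodes the death protein Puma, read 7.93, 7.88, 7.90 and 7.92 and then 7.56, 7.48 and 7.04 (-0.55 ± 0.11, adjusted p = 0.00141), in 1 of 3 kept probes. At 60 min Bbc3 had a WT mean of 9.36, well over its start. Of the 21 members 12 were lower at 120 than at 60 min, against 4.86% of all genes tested. Cdkn1a, the best known p53 target, differed by -0.25 ± 0.08 from 0 min without passing (adjusted p = 0.0657).

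Genes of Wnt signalling, which the title of the series names, were called in both directions. Of 25 tested receptors and transducers 4 fell and none rose, beside 1.98% and 2.04% of all genes tested, with a median of -0.06. The receptor gene Fzd2 read 8.37, 8.30, 7.98 and 8.68 at 0 min and 7.11, 7.54 and 7.35 at 120 min, 2-fold lower (-0.998 ± 0.15, adjusted p = 3.4e-05). Bcl9l, a cofactor of beta-catenin, read 7.98, 7.93, 7.45 and 8.0 and then 6.90, 7.20 and 6.88 (-0.85 ± 0.16, adjusted p = 0.00139, in 1 of 2 kept probes), and the Groucho corepressor gene Tle2 fell by 0.78 on the log2 scale (adjusted p = 0.00102). In these 3 genes no 120 min array reached the lowest 0 min array. Tcf7l1, a DNA-binding partner of beta-catenin that mostly represses, was lower by 0.33 (adjusted p = 0.0321), but the call ended without any 1 of 6 arrays (adjusted p up to 0.164, without WT 120 min replicate A). The other frizzled genes tested did not pass. Of 10 tested ligand and secretion genes, Wnt7a (0.61 ± 0.16, adjusted p = 0.0215, from 1 of 4 to 3 of 3 arrays detecting it) and Wnt7b (0.33 ± 0.08, adjusted p = 0.0215) rose. Their calls ended without any 1 of 4 and of 3 arrays (adjusted p up to 0.135 and 0.112, without WT 120 min replicates A and B). Of 12 antagonists and feedback genes none was called by limma in either direction.

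Regulators of development were also among the changes. Runx1t1, a transcriptional corepressor, read 8.47, 8.22, 8.06 and 8.50 at 0 min and 7.19, 7.13 and 7.21 at 120 min (-1.13 ± 0.13, adjusted p = 9.84e-07), in 1 of 2 kept probes, while its relative Cbfa2t3 rose by 0.61 ± 0.11 (adjusted p = 0.000699), also in 1 of 2. Hoxc6, a positional homeobox gene, read 10.83, 10.79, 10.69 and 10.93 and then 9.98, 9.98 and 9.84 (-0.88 ± 0.09, adjusted p = 9.73e-08). Of the listed developmental factors 2 of 29 rose and 2 fell, beside 2.04% and 1.98% of all genes tested. Foxc2 (0.996 ± 0.11) and Twist2 (0.50 ± 0.09) were higher, and Foxc1 (-0.62 ± 0.13) and Osr2 (-0.85 ± 0.11) were lower. The 2 close forkhead relatives Foxc1 and Foxc2 thus went opposite ways, with adjusted p = 0.00332 and 3.52e-07. Bmp4, a signal of the TGF-beta superfamily, was detected on 4 of 4 arrays at 0 min (5.49, 5.996, 5.83 and 5.60) and on 1 of 3 at 120 min (5.02, 4.81 and 4.83, -0.84 ± 0.16, adjusted p = 0.000852). Tgif1, a corepressor of TGF-beta signalling, rose by 0.71 ± 0.10 in all 3 of its probes, within a list of 30 TGF-beta and BMP genes of which 3 were higher and 1 was lower. The remaining large falls were Sertad4 (-1.09 ± 0.11), Lrig3 (-0.85 ± 0.11) and the orphan receptor gene Mrgprf (-0.92 ± 0.12).

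Genes of growth and division are given as counts, beside the 4.02% of all genes tested that were called. None of 35 ribosome biogenesis genes passed (median 0.10), nor any of 21 genes of cholesterol and fatty acid synthesis (median 1e-04), 13 of G2/M and mitosis (median -0.08), 14 of the Notch pathway (median 0.04) or 11 of IGF signalling (median -0.02), by limma at an adjusted p under 0.05. Of 23 genes of G1/S and DNA replication 1 was higher, Cdt1, which licenses replication origins (0.42 ± 0.10, adjusted p = 0.0162), and that call ended without any 1 of 2 arrays (adjusted p up to 0.0958, without WT 120 min replicate C). The cyclin D1 gene Ccnd1 differed by 0.17 ± 0.10 (adjusted p = 0.46). Of 11 Kruppel-like factors 4 rose and 1 fell, with Klf13 the largest (0.60 ± 0.10), and 1 of these 5 stayed called whichever array was left out. Among 16 interferon-stimulated genes 2 fell, Ifit3 by 0.68 on the log2 scale (adjusted p = 1.87e-05) being the larger, in 1 of 3 kept probes.

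Of the marker lists, Twist2 was the 1 of 14 fibroblast genes called. Cldn4 was 1 of 4 tested epithelial markers, and the summed level of that list was 268 to 325 at 0 min and 354 to 374 at 120 min. The other epithelial genes Cdh1, Krt18, Krt14, Krt5, Krt19 and Esrp1 were detected on none of the 7 arrays, and Krt8, which was on all of them, did not pass. Of 5 tested neural and glial markers Gap43 was higher (0.35 ± 0.10, adjusted p = 0.049; up to 0.204 with 1 array left out, WT 120 min replicate C) and Mbp was lower (-0.70 ± 0.14, adjusted p = 0.00171). The summed level of that list was 595 to 676 at 0 min and 715 to 776 at 120 min, and Gfap, Map2 and S100b were detected on none of the 7 arrays. Tubb3 was detected on 0 of 4 arrays at 0 min and 2 of 3 at 120 min, with means of 4.55 and 5.13, and Nes was detected on all 7, with means of 7.30 and 7.58. The part of other cell types in these values was not tested. In bulk RNA, fewer cells of a type and less RNA per cell cannot be told apart.

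Set against WT cells at 60 min, 856 genes differed at 120 min (7.85%), 326 higher (2.99%) and 530 lower (4.86%). This comparison shares the 120 min arrays with the one above and none of the 0 min arrays. Noise in the shared arrays favours the same direction in both. Of the 438 genes called against 0 min, 228 were also called against 60 min: 84 were higher than at both times and 118 lower than at both, 23 had risen but were lower than at 60 min, and 3 had fallen but were higher. Sema7a (2.13 ± 0.15), the clock gene Arntl (1.49 ± 0.11), Cbfa2t3 (1.39 ± 0.12), the cyclin-dependent kinase gene Cdk20 (1.202 ± 0.09, in all 4 kept probes against 0 min) and Rasa2 (1.12 ± 0.12) were among the genes higher than at 60 min. Arntl went from 7.15 at 60 min to 8.65 at 120 min, beside 7.77 at 0 min and 7.71 at 240 min, so its level was highest at 120 min among the 5 WT times. The largest declines from 60 min were those of Csrnp1 (-2.90 ± 0.11), Ccn2 (-2.63 ± 0.12), Chac1, a glutathione-degrading enzyme gene (-2.27 ± 0.12), Cdc42ep3 (-2.16 ± 0.13) and Egr1 (-2.12 ± 0.16). Cdc42ep3, an effector of Cdc42, was then below its 0 min level (-0.67 ± 0.12, adjusted p = 0.000858).

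From 120 to 240 min, 1042 genes differed (9.56%), 541 higher (4.96%) and 501 lower (4.6%). Of the genes called at 120 min, 31 had risen and rose further and 35 had fallen and fell further, whereas 56 had risen and were lower at 240 min and 51 had fallen and were higher. Both comparisons use the WT 120 min arrays, with opposite sign. Noise in those arrays therefore favours reversals among genes chosen this way, and its part in these counts was not tested. Mmp3 went from 6.19 to 9.46 (3.27 ± 0.16) and Mmp10 from 5.45 to 8.13 (2.67 ± 0.17). Tnc rose further by 1.33 ± 0.15, the calcification inhibitor gene Mgp by 1.47 ± 0.13 and Plau by 0.94 ± 0.13. The DNA repair gene Ung, at -0.24 ± 0.14 against 0 min, rose by 1.60 ± 0.15. Egr1 (-1.85 ± 0.16), Fam180a (-1.73 ± 0.17), the osteoprotegerin gene Tnfrsf11b (-1.63 ± 0.15) and Egr2 (-1.46 ± 0.15) were among the largest falls. Cldn4 (-0.86 ± 0.17), Vegfa (-0.69 ± 0.10), Acer2 (-0.66 ± 0.13) and Arntl (-0.94 ± 0.11), all risen at 120 min, were lower again at 240 min.

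The same contrast in KO cells, which have their own 0 and 120 min arrays (4 and 3), addresses whether the response differs between KO and WT cells. The labels do not say how many cell lines stand behind each genotype. Deletion of the Sprouty genes and other differences between the cells therefore cannot be told apart. Spry4, whose probe was not placed relative to the deleted part, had a KO mean of 4.74 at 0 min and 5.18 at 120 min, against 5.45 and 6.12 in WT. Spry3, which is not floxed, also lacked signal in KO cells. It was detected on 0 of 4 KO arrays at 0 min and 0 of 3 at 120 min, against 4 of 4 and 3 of 3 in WT. The cause of this difference, and its part in the responses compared here, was not tested. The difference of the 2 responses was called for 203 of 10903 genes (1.86%), 109 with a larger value in KO (1%) and 94 with a smaller one (0.862%). Of the 438 genes that changed in WT, 58 were among them: 19 had risen with a larger response in KO, 17 had risen with a smaller one, 14 had fallen with a less negative response in KO, and 8 with a more negative one. These genes were chosen by the same WT difference that the contrast subtracts. Noise in the WT arrays therefore favours smaller and less negative responses in KO, and its part in this split was not tested. The count depended on scaling, being 516 with a common median over the kept probes and 2516 with one over all probes, which moved the median difference of all genes to -0.27. It also fell to 125 and 123 without WT 120 min replicate B or C and to 135 without KO 120 min replicate A. Of the 30 differences named in this text, 28 and 23 stayed called with the same sign under those scalings, 24 with the authors' normalized values and 22 in a fit of the compared arrays alone, and none changed sign in these 4 settings.

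Of 37 cytokine, chemokine and NF-kappaB genes 8 had a larger response in KO and 1 a smaller one, beside 1% and 0.862% of all genes tested. Lif rose by 0.91 in WT and differed by 3.04 in KO, from a mean of 5.27 to 8.31 (difference 2.13 ± 0.22, adjusted p = 5.69e-07). Hbegf differed by 0.74 in WT and 2.05 in KO (difference 1.31 ± 0.13, adjusted p = 3.9e-07), and Il11 by 0.48 and 1.83 (1.35 ± 0.18). The KO mean of Hbegf started lower, at 8.99 against 10.54 in WT, and was 11.04 against 11.28 at 120 min. Csf2, a myeloid growth factor gene, was detected on no WT array at either time and on no KO array at 0 min, and on 3 of 3 KO arrays at 120 min at a mean of 7.38 (2.79 ± 0.23, adjusted p = 1.67e-08). Il6 went from 4.85 to 6.91 in KO, where it differed by -0.03 in WT (2.09 ± 0.22, adjusted p = 7.81e-07). Mmp13 and S100a8 reached 6.63 and 7.82 in KO at 120 min and were not detected in WT at that time (1.65 ± 0.19 and 1.82 ± 0.15). These differences for genes at background are no bounds.

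Of the 25 immediate early factors 7 had a larger response in KO and none a smaller one, and of the 18 feedback genes 3 and none, where 1% and 0.862% of all genes tested did. The differences of the 2 responses were 1.11 ± 0.18 for Atf3, 0.96 ± 0.14 for Junb, 0.76 ± 0.20 for Egr2, 0.82 ± 0.16 for Rgs16, 0.79 ± 0.15 for Plk3 and 0.60 ± 0.12 for Ier3. Sphk1 (0.92 ± 0.13), Mmp10 (1.32 ± 0.22), Srxn1 (0.73 ± 0.11) and Cited2 (0.63 ± 0.17) also had a larger response in KO. At 0 min the KO means of Atf3, Egr2, Rgs16, Plk3, Sphk1 and Cited2 were below those of WT, and those of Junb, Ier3, Mmp10 and Srxn1 above. Egr2 went from 5.13 to 7.16 in KO and from 6.19 to 7.46 in WT, and Plk3 from 7.79 to 9.31 and from 8.54 to 9.26. Egr1, Csrnp1 and Ccn2, not called in WT, differed by 1.04 ± 0.22, 1.40 ± 0.15 and 0.79 ± 0.16. Dusp6, Jun and Fosb were not among them, with differences of -0.07 ± 0.12, 0.15 ± 0.16 and 0.29 ± 0.16 (adjusted p = 0.832, 0.694 and 0.377), nor was Sema7a, which differed by 2.13 in KO (0.21 ± 0.20, adjusted p = 0.645).

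Smaller responses in KO were found for Ccl7 (-0.95 ± 0.18), which was already at 13.39 in KO at 0 min against 10.25 in WT, and for Acer2 (-0.75 ± 0.18). Efhd1 (-1.13 ± 0.21) and Gap43 (-0.61 ± 0.15) were also called, but were detected on 1 and 3 of the 4 KO arrays at 0 min and on 0 of 3 at 120 min, so that these differences rest on signal at background. Among fallen genes Ccng2 (0.75 ± 0.17) and Trp53inp1 (0.50 ± 0.14) had a less negative response in KO. Osr2 (0.80 ± 0.15) and Fgf5 (0.44 ± 0.10) were not detected on any KO array at either time, where no fall could have been measured. Rnd3 differed by -1.48 in KO and Gadd45g by -1.17, both more negative than in WT (-0.88 ± 0.20 and -0.54 ± 0.11). Of the 4 Wnt transducers that fell in WT none differed by limma, nor did Wnt7a or Wnt7b (adjusted p = 0.43 for Fzd2 and 0.148 for Wnt7a), which does not show that they respond alike. At 0 min Wnt7b stood at 5.28 in KO against 10.09 in WT. Wnt7a differed by -0.02 in KO, where 4 of 4 arrays detected it at 0 min and 2 of 3 at 120 min.

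**Figure D5:**
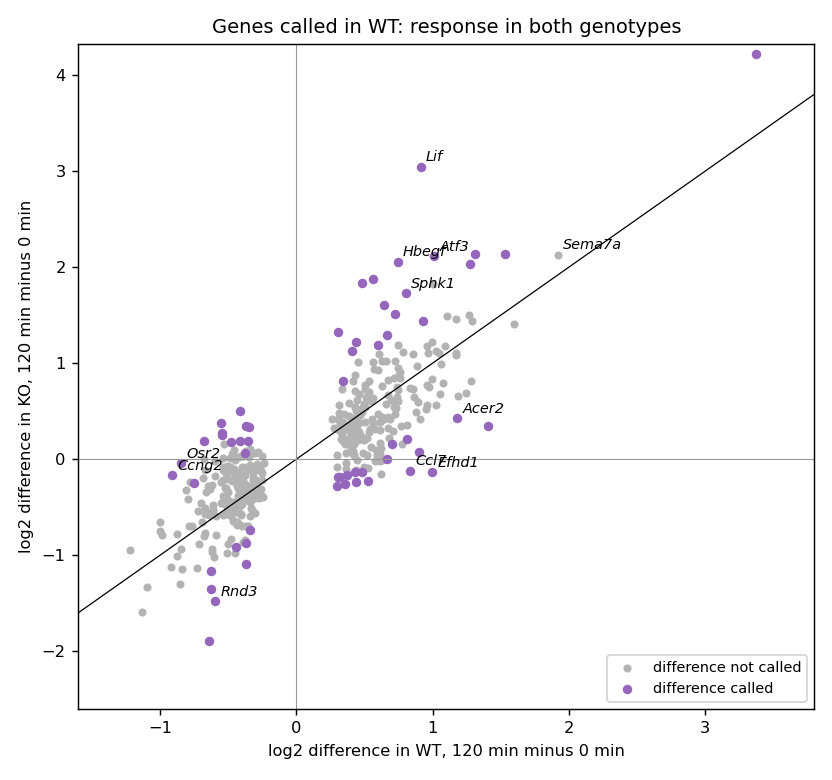
Log2 difference between 120 and 0 min in KO (y axis) against that in WT (x axis) for the 438 genes called in WT, with a line where both are equal. Purple points are the 58 genes whose 2 responses differed by limma, such as Lif (0.91 in WT, 3.04 in KO) above the line and Acer2 (1.18 and 0.43) below it, the point at the top right is the unnamed probe, and the genes shown were chosen for their WT response.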

How the data were processed

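Total RNA of 32 samples was hybridised to Illumina mouse bead arrays. The deposited table that carries no normalization holds 25697 probes with, per the file headers, the average intensity, a bead standard deviation on the signal scale, a count of beads and a detection fraction, read here as 1 minus the detection p, for each array. The last 3 stand under headers repeated for every array and were taken from the block that each array's named column opens. GenomeStudio 1.9.0 is named per the submitters' processing notes, and no further step of the authors is given in the sources used here. Another 128 per-sample columns were not used. A second table deposited by the authors holds normalized intensities on a linear scale, with the same minimum and a near-equal median in every column, and served as an alternative.

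Intensities were background corrected against the negative controls (normexp, offset 16), quantile normalized and put on the log2 scale. Probes detected at p 0.05 on at least 3 arrays were kept (14716), and each gene was represented by its brightest probe on average, which gave 10903 genes (10041 named, 862 without a name). Of all probes 23978 had 1 gene symbol in the platform annotation, 0 several and 1719 none, and 23962 matched RefSeq (GRCm38.p6). The build of the arrays is not named, so no gene coordinates are given. limma 3.58.1 in R 4.3.3 fitted 1 mean for each of 10 groups over all 32 arrays, which share 1 estimate of the spread (22 residual and 5.28 prior degrees of freedom), with Benjamini-Hochberg adjustment and calls at 0.05. The fit was tested on simulated data. Where no array of a group detected a gene, the fold is a bound ("at least"), from the bright group's mean and the higher of the gene's own signal and the lowest detected signal on each array of the other group.

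Genes named are the 15 largest rises and falls with arrays that do not overlap, up to 5 called members of each list, up to 5 in each direction of the 3 other comparisons, and the Sprouty genes. The text names a part of these, and says where a gene was added after its values were seen. Members and lists were chosen with earlier results of these data known, so a list's direction is not independent evidence. No 2 arrays held identical values. Alternatives were other scalings, the authors' normalized values, offset 50, other filters, all kept probes, a replicate block, array weights, a fit of the compared arrays alone, and leaving out each array. Figures were drawn with matplotlib 3.10.9 in Python 3.11.15.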

Additional observations from a re-analysis of the deposited data

Results flagged for a closer look

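In 6 of the 108 tested genes of this text, 1 of the 4 WT arrays at 0 min stood far from the other 3, by a test on the gap. Chance meets that test in about 1 in 20 groups, so a count like this one would arise without any unusual array. Has2 read 6.22 on replicate C and 5.84 to 5.88 on the other arrays. Atf3 read 7.09 on replicate C and 6.47 to 6.58 on the other arrays. Hk2 read 9.39 on replicate B and 9.33 to 9.34 on the other arrays. Tcf7l1 read 9.48 on replicate C and 9.79 to 9.83 on the other arrays. Gadd45g read 11.82 on replicate B and 11.64 to 11.66 on the other arrays. Bcl9l read 7.45 on replicate C and 7.93 to 8.0 on the other arrays. The array was replicate C for Has2, Atf3, Tcf7l1 and Bcl9l and replicate B for Hk2 and Gadd45g. The calls of these genes, that of Tcf7l1 excepted, stayed whichever array was left out.

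The 120 min response differed between KO and WT in 30 named genes by limma's test of the difference itself. The difference, KO minus WT on the log2 scale, was 1 or more in Csf2 (2.79, adjusted p = 1.67e-08), Lif (2.13, adjusted p = 5.69e-07), Il6 (2.09, adjusted p = 7.81e-07), S100a8 (1.82, adjusted p = 1.67e-08), Mmp13 (1.65, adjusted p = 1.8e-06), Csrnp1 (1.40, adjusted p = 7.81e-07), Il11 (1.35, adjusted p = 2.14e-05), Mmp10 (1.32, adjusted p = 0.000922), Hbegf (1.31, adjusted p = 3.9e-07), Atf3 (1.11, adjusted p = 0.000686) and Egr1 (1.04, adjusted p = 0.00791). It lay below that and above 0.7 in Junb (0.96, adjusted p = 0.000183), Sphk1 (0.92, adjusted p = 9.7e-05), Rgs16 (0.82, adjusted p = 0.00488), Osr2 (0.80, adjusted p = 0.00308), Plk3 (0.79, adjusted p = 0.00224), Ccn2 (0.79, adjusted p = 0.00602), Egr2 (0.76, adjusted p = 0.0484), Ccng2 (0.75, adjusted p = 0.0132) and Srxn1 (0.73, adjusted p = 0.000205). Smaller positive differences belonged to Cited2 (0.63, adjusted p = 0.0499), Ier3 (0.60, adjusted p = 0.00547), Trp53inp1 (0.50, adjusted p = 0.0484) and Fgf5 (0.44, adjusted p = 0.0204). The difference was negative in Gadd45g (-0.54, adjusted p = 0.00864), Gap43 (-0.61, adjusted p = 0.0235), Acer2 (-0.75, adjusted p = 0.0228), Rnd3 (-0.88, adjusted p = 0.0153), Ccl7 (-0.95, adjusted p = 0.00363) and Efhd1 (-1.13, adjusted p = 0.00284). Osr2 and Fgf5 were detected on no KO array at either time, and Csf2 and S100a8 on no WT array at 0 or 120 min.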

How the results depend on the processing

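Counts stayed within 1.5 times under the authors' normalized values, offset 50, no or a stricter filter on detection and every kept probe. They also did with array weights and the replicate block. Under these settings, every kept probe excepted, no named gene called in either fit changed direction, though not every call stayed. Calls of named genes against 0 min were not compared under every kept probe. The direction of genes that neither fit called was not compared. A fit of the compared arrays alone, with fewer arrays behind the spread, called 112 higher and 66 lower at 120 against 0 min, 565 against 60 min, 635 at 240 against 120 min and 102 differences between genotypes. Scaling to the median over all probes left 218 higher and 72 lower, and gave 2516 genotype differences with a median over all genes of -0.27, and scaling over the kept probes gave 516. The cause of the changes with scaling was not tested. Of the named genes' calls, the fit of the compared arrays alone lost 20: Myc, Spry4, Dusp2, Wnt7a, Wnt7b, Klf13, Klf9, Mmp10, Ccn1, Il11, Cdt1, Spry3, Ets2, Gap43, Tcf7l1, Fgf5, Gab1, Plk2, Bbc3 and Rnd3. Under scaling over all probes 9 calls, those of Mmp10, Spry3, Klf9, Tcf7l1, Fgf5, Gab1, Plk2, Tob1 and Rnd3, were lost, and over the kept probes those of Wnt7a and Mmp10. The calls of Spry3 and Gap43 were lost with the authors' values, that of Mmp10 with offset 50, and those of Mmp10 and Gap43 with no filter and with array weights, while Cdkn1a was called with offset 50, the stricter filter and array weights. With 1 array left out, the number higher ran from 162 to 209, the number lower from 122 to 218 (135, 136 and 122 without WT 120 min replicates A, B and C), those against 60 min from 581 to 676, those at 240 against 120 min from 727 to 950 and the genotype differences from 123 to 236 (125 and 123 without WT 120 min replicates B and C, 135 without KO 120 min replicate A). Replicates share only a letter: deviations of same-letter arrays at 0 and 120 min correlated at -0.147, 0.0121 and -0.147, and the replicate block gave 197 higher and 192 lower, 783 against 60 min, 975 at 240 against 120 min and 166 genotype differences. It ended the calls of Mmp10, Il11, Spry3, Ets2, Klf9 and Tcf7l1 and of 3 of the 30 named genotype differences. A slide block was not run because the files used name no slide. Signal near background limits Fosb, Dusp2 and Pik3ip1, whose folds are bounds, and Csf2, S100a8, Mmp13, Efhd1, Gap43, Osr2 and Fgf5, whose differences between genotypes rest on groups at background.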
